A study of Mus musculus with 6 samples.

Results

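Glycogen metabolism was followed through 9 genes in quadriceps muscle of male mice that lack the estrogen receptor ERα in muscle (MERKO) and of control mice. The genes are Ppp1r3a, Ppp1r3b, Ppp1r3c and Ppp1r3d, which encode subunits that bring protein phosphatase 1 to glycogen, and Gys1, Gbe1, Pygm, Phka1 and Phkg1, which encode enzymes of glycogen synthesis, branching and breakdown. They were taken from the table of read counts by gene symbol through their Ensembl identifiers, and all 9 were found among its 48795 genes and were among the 13628 genes tested. MERKO males carry the genotype muscle-specific Er_alpha-/- and controls are wildtype males, each with 3 libraries. All are of strain C57BL/6 and 20 weeks old. The labels name neither the driver that restricts the deletion to muscle, nor any allele or Cre carried by the controls, nor a treatment, feeding state or time of day.

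Muscle stores glucose as glycogen and spends it during contraction. Glycogen synthase lengthens the chains and the branching enzyme joins them into a tree, while glycogen phosphorylase releases glucose units again. Phosphorylase kinase switches phosphorylase on, and protein phosphatase 1 dephosphorylates synthase, phosphorylase and phosphorylase kinase, which favours storage. The phosphatase reaches the granule through targeting subunits of the PPP1R3 family, of which Ppp1r3a is the striated muscle form, Ppp1r3b is best known from liver, and Ppp1r3c (also called PTG) and Ppp1r3d are found in many tissues.

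The promoters of Ppp1r3c and Ppp1r3a are shown because these genes supplied nearly all targeting-subunit transcripts in this muscle. The sequences are from RefSeq on GRCm38.p6, read 5′ to 3′ on the minus strand, and cover chr19:36736654-36736854 for Ppp1r3c and chr6:14755275-14755524 for Ppp1r3a, both upstream of the annotated gene. Capitals mark the E-box CACGTG in Ppp1r3c, and the TATA box letters TATAAA and their reverse complement TTTATA in Ppp1r3a. In Ppp1r3a, TATAAA begins 149 bases and TTTATA 97 bases upstream of the RefSeq start. These are matches of letters only, and whether any of them acts in the promoter was not tested.
Ppp1r3c: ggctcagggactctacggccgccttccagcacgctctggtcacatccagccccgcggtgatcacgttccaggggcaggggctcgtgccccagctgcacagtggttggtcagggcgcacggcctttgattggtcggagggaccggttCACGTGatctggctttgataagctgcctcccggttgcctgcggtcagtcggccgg
Ppp1r3a: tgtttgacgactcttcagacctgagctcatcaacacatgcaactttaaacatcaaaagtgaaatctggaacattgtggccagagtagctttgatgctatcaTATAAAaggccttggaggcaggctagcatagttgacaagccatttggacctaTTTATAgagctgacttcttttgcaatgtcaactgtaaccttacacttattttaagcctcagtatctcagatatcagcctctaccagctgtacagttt
Across all 32851 promoters in the RefSeq table, the 250 bases upstream of the start held CACGTG in 6.02% and TATAAA, on either strand, in 12.4%. The printed stretch of Ppp1r3c is 201 bases long because the RefSeq start lies 49 bases inside the GENCODE gene model, and only bases outside that model are shown. The E-box of Ppp1r3c begins 55 bases upstream of the GENCODE model, or 104 bases upstream of the RefSeq start, and Ppp1r3d has another that begins 226 bases upstream of its RefSeq start. The full palindromic estrogen response element was found in 0.0639% of all promoters, its half-site AGGTCA, which can lie within it, in 14%, the glucocorticoid response element in 0.00913% and the cAMP response element TGACGTCA in 1.55%. None of these was found, on either strand, in the 250 bases upstream of the RefSeq start of the 8 members with an entry, which says only that these letters are not in this window. GC content was 66.2% in the printed Ppp1r3c sequence and 40.4% in that of Ppp1r3a, against a median of 52.4% over all promoters.

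The libraries held 15755947 to 26596608 counts in MERKO and 14935532 to 44282448 counts in control. Esr1, the targeted gene, was lower in every MERKO library than in any control library and was the 1 gene called over the whole table, or 0.00734% of genes tested (log2 fold change -1.95, SE 0.16, adjusted p = 0.0262, edgeR quasi-likelihood test). The adjusted p for Esr1 was above 0.05 when MERKO 1, MERKO 2, control 2 or control 3 was left out, between 0.0576 and 0.109. Skeletal muscle genes were abundant in all libraries, with Acta1 and Ckm at 13937 to 24749 CPM (counts per 1000000 of a library total scaled by TMM factors). The share of counts on an rRNA gene model ran from 6.19% to 32.4% in MERKO and from 0.0433% to 27.7% in control. Genes of slow fibres were high in MERKO 1 and control 1, whose summed level was 546 and 567 CPM, against 45.6 to 56.8 CPM in the other 4 libraries.

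Of the 9 members, 6 were lower in MERKO and 3 were higher, and their median log2 fold change was -0.17 against 0.01 over all genes tested, of which 47.9% were lower. None passed the edgeR test, in which the lowest adjusted p among them was 0.641. At an unadjusted p under 0.05 there was 1 member, Ppp1r3c, where 7.04% of all genes lay under that value (3.34% lower and 3.71% higher in MERKO). DESeq2, with its own filter and scaling, called 1 member, again Ppp1r3c, against 0.166% of the genes for which it gave an adjusted p (0.0723% lower in MERKO), and limma-voom called 0. Ppp1r3c was also the 1 member whose groups did not overlap, with all MERKO libraries below all control libraries, as was the case for 7.1% of genes tested.

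**Figure D1:**
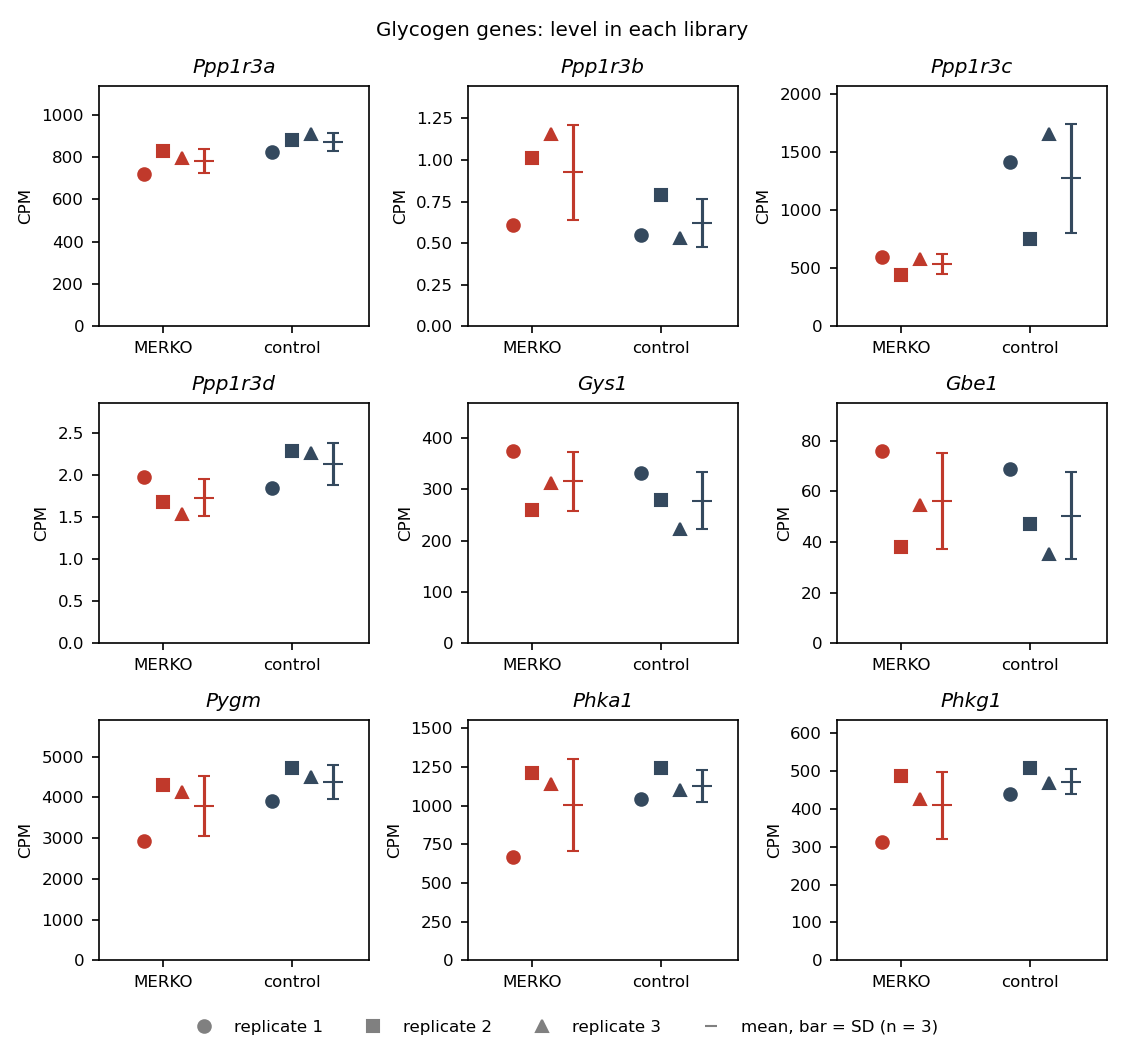
CPM of the 9 glycogen genes in each library, MERKO left and control right, with the mean and SD (n = 3) beside the points and each vertical axis starting at 0. Ppp1r3c is the panel in which no MERKO point reaches a control point, with MERKO libraries at 438 to 595 CPM and control libraries at 751 to 1653 CPM.

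Ppp1r3c (ENSMUSG00000067279.2, GRCm38 chromosome 19, 36731731 to 36736653, minus strand) showed the largest difference of the members. It stood at 595, 438 and 583 CPM in MERKO 1 to 3, against 1415, 751 and 1653 CPM in control 1 to 3. The MERKO libraries lay close together, with a coefficient of variation of 16.2%, whereas the control libraries spread over 36.7% and control 2 came nearest to MERKO. Means were 539 ± 87.1 CPM for MERKO and 1273 ± 467 CPM for control (SD, n = 3 each). The log2 fold change was -1.24 (SE 0.28, 95% interval -1.89 to -0.59), which corresponds to 42.3% of the control level with an interval of 27.0% to 66.3%. Its p of 0.0022 in the edgeR fit ranked 46 among all genes, and the adjusted p was 0.641. DESeq2 gave an adjusted p of 0.000639. Only 66 of the 13628 genes, or 0.484%, had a log2 fold change as low or lower. Leaving out control 3 gave a log2 fold change of -1.01 and leaving out control 2 gave -1.50.

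Ppp1r3c also moved with library make-up inside each group. Within MERKO it was lowest in the library with the highest rRNA share, MERKO 2. Within control it was lowest in control 2, which had the highest rRNA share of that group, and highest in control 3 with the lowest. MERKO 2 and control 2 also had the fewest counts of their groups, 15755947 and 14935532, and the lowest share of counts on mitochondrial DNA genes. Their TMM factors were the lowest as well. Control 3 had the most counts, 44282448. Between the libraries of highest rRNA share, Ppp1r3c had 438 CPM in MERKO 2 against 751 CPM in control 2. MERKO 1 had a lower rRNA share than control 1, 6.19% against 11.1%, and 595 CPM against 1415 CPM. With the rRNA share as a covariate, a fit chosen after the data were seen, the log2 fold change was -0.99 (adjusted p = 0.679, edgeR). The part of library make-up in the difference was not tested beyond these values.

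Adipocyte genes were also lower in MERKO, in 8 of 8 list members, and none of the 8 was at 0 in all libraries. Their median log2 fold change was -2.14, against 0.01 over all genes tested. An unadjusted p under 0.05 (edgeR) was reached by 6 of the 8, against 7.04% of all genes. The groups did not overlap in 4 of the 8, all lower in MERKO, against 7.1% of all genes that were lower without overlap. None passed after adjustment (lowest adjusted p 0.631, edgeR). Their summed level, in which abundant genes weigh most, was 115 to 147 CPM over the MERKO libraries, against 147 to 482 CPM over the control libraries. Inside the control group, control 2 had the highest adipocyte sum and the lowest Ppp1r3c. Inside the MERKO group, MERKO 2 had the lowest adipocyte sum, 115 CPM, and the lowest Ppp1r3c, 438 CPM. MERKO 3 had the highest sum of that group and MERKO 1 the highest Ppp1r3c. MERKO 3 and control 1 had nearly equal adipocyte sums, 147.0 and 147.5 CPM, and Ppp1r3c had 583 CPM in MERKO 3 against 1415 CPM in control 1. The part of adipocyte RNA in the Ppp1r3c difference was not tested. In muscle tissue, fewer cells of a type and less RNA per cell cannot be told apart.

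Ppp1r3a (ENSMUSG00000042717.5, chromosome 6, 14713977 to 14755274, minus strand), the subunit that anchors the phosphatase to glycogen and to the sarcoplasmic reticulum, was the steadiest member. It stood at 717, 830 and 796 CPM in MERKO 1 to 3, against 822, 882 and 908 CPM in control 1 to 3. MERKO 2 lay above control 1, so the groups overlapped, and the log2 fold change was -0.16 (95% interval -0.44 to 0.13, adjusted p = 0.798, edgeR), and -0.10 without MERKO 1. The highest library was 1.27 times the lowest for Ppp1r3a and 3.77 times the lowest for Ppp1r3c.

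Ppp1r3d and Ppp1r3b were expressed at very low levels. Ppp1r3d (ENSMUSG00000049999.4, chromosome 2, 178411206 to 178414472, minus strand) stood at 1.98, 1.68 and 1.54 CPM in MERKO 1 to 3, against 1.85, 2.29 and 2.26 CPM in control 1 to 3. The groups overlapped through MERKO 1 and control 1 (log2 fold change -0.29, 95% interval -0.80 to 0.23). Ppp1r3b (ENSMUSG00000046794.9, chromosome 8, 35375739 to 35388139, plus strand) had 20, 12 and 24 counts in MERKO 1 to 3, against 13, 10 and 29 counts in control 1 to 3, or 0.53 to 1.15 CPM over the 6 libraries. Its log2 fold change of 0.59 had a wide interval, from -0.27 to 1.45, and was 0.36 without MERKO 3. Of the other family members, Ppp1r3e and Ppp1r3f had 5 to 67 counts per library, with log2 fold changes of 0.15 (-1.11 to 1.40) and 0.40 (-0.46 to 1.27). Ppp1r3g had 0 counts in all 6 libraries, where a count of 0 allows up to 3 counts, or 0.0677 to 0.201 CPM of a library's total.

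Per kilobase of exon, Ppp1r3c and Ppp1r3a together made up nearly all transcripts of the 7 targeting subunits. The share of Ppp1r3c was 67.7%, 57.2% and 64.9% in MERKO 1 to 3, against 81.4%, 68.3% and 82.2% in control 1 to 3. Ppp1r3a held 31.95%, 42.3% and 34.7% in MERKO 1 to 3, against 18.5%, 31.4% and 17.7% in control 1 to 3. MERKO 1 and control 2 were within 1 percentage point of each other for both genes, although the groups did not overlap. The ratio of Ppp1r3c to Ppp1r3a per kilobase averaged 1.78 ± 0.39 in MERKO and 3.74 ± 1.36 in control (SD, n = 3 each). Ppp1r3d, Ppp1r3b, Ppp1r3e and Ppp1r3f each held under 0.2% in every library. These shares depend on the annotated exon length: in counts without division by length, Ppp1r3c averaged 40.6% in MERKO and 57.8% in control.

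**Figure D2:**
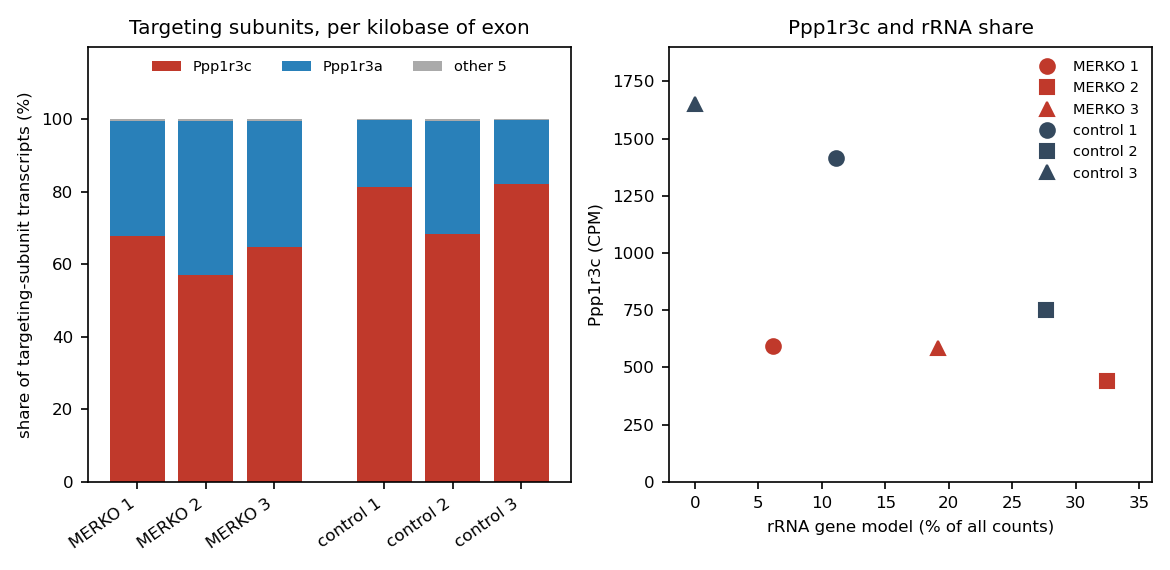
Left, share (%) of Ppp1r3c, Ppp1r3a and the other 5 targeting subunits in each library, from CPM per kilobase of exon; right, Ppp1r3c in CPM against the percentage of all counts on the rRNA gene model, 1 point per library. Ppp1r3c takes 57.2% to 67.7% in MERKO and 68.3% to 82.2% in control, and in each group its lowest level is in the library with the highest rRNA share.

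None of the 3 genes for the catalytic subunits that these proteins bring to glycogen passed the test (adjusted p from 0.654 to 0.796, edgeR). Ppp1cc stood at 36.6, 39.3 and 37.9 CPM in MERKO 1 to 3, against 47.6, 43.9 and 46.9 CPM in control 1 to 3, with no overlap between the groups (log2 fold change -0.28, SE 0.08, adjusted p = 0.654, edgeR). Ppp1ca differed by -0.20 on the log2 scale (-0.42 to 0.02), also without overlap, and Ppp1cb by -0.13 (-0.35 to 0.10). Of all genes tested, 7.1% were lower in MERKO without overlap. Of their transcripts per kilobase, Ppp1ca held 52.5% to 54.4% in MERKO and 52.7% to 54.3% in control. Ppp1cb held 29.9% to 32.2% in MERKO and 29.7% to 30.04% in control. Ppp1cc held 15.3% to 15.8% in MERKO and 16.02% to 17.2% in control, without overlap. Ppp1r1a, an inhibitor of the phosphatase, had a log2 fold change of 0.23 (-0.07 to 0.54).

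Gys1 and Gbe1, the synthesis enzymes among the members, had slightly higher means in MERKO with wide overlap. Gys1 (ENSMUSG00000003865.16, chromosome 7, 45434844 to 45456619, plus strand), the muscle glycogen synthase, stood at 374, 260 and 312 CPM in MERKO 1 to 3, against 332, 280 and 222 CPM in control 1 to 3. Its log2 fold change was 0.18 (-0.24 to 0.60, adjusted p = 0.841, edgeR), and it was 0.04 without MERKO 1 and 0.04 without control 3. Gys1 overlaps Ruvbl2 on the opposite strand, which had 2532 counts over the 6 libraries against 45446 for Gys1. Gbe1 (ENSMUSG00000022707.16, chromosome 16, 70313949 to 70569716, plus strand), the branching enzyme, stood at 76.0, 38.1 and 54.6 CPM in MERKO 1 to 3, against 68.9, 47.35 and 35.2 CPM in control 1 to 3. Its log2 fold change was 0.16 (-0.50 to 0.83), which became -0.11 without MERKO 1 and -0.05 without control 3, so no direction can be given. The libraries stood in the same order for Gys1 and Gbe1, from MERKO 1 through control 1, MERKO 3, control 2 and MERKO 2 to control 3.

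The other synthesis genes ranged from -0.65 to 0.05 in log2 fold change. Gyg, which encodes the primer protein glycogenin, ranged from 201 to 218 CPM over the MERKO libraries, against 226 to 245 CPM over the control libraries. It was lower without overlap, as were 7.1% of all genes (log2 fold change -0.15, -0.37 to 0.08, adjusted p = 0.746, edgeR). Pgm1, which interconverts glucose 1-phosphate and glucose 6-phosphate, differed by -0.19 on the log2 scale (-0.63 to 0.25), and by -0.0052 without MERKO 1. Gys2, the liver synthase, had the lowest value at -0.65, with an interval of -2.18 to 0.89 on few counts, and ran from -1.98 to -0.10 when single libraries were left out. Ugp2, which makes the UDP-glucose that synthase uses, was at 0.05 and Pgm2 at 0.02. Of the 5 genes in this list, 2 were higher and 3 lower, and 0 passed over all genes.

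Pygm, the muscle glycogen phosphorylase that cuts glucose units from the chains, was the most abundant member. Pygm (ENSMUSG00000032648.14, chromosome 19, 6384399 to 6398459, plus strand) stood at 2932, 4309 and 4122 CPM in MERKO 1 to 3, against 3917, 4719 and 4491 CPM in control 1 to 3. MERKO 1 was the lowest library, and MERKO 2 and MERKO 3 lay between the control libraries. The log2 fold change was -0.21 (-0.70 to 0.28, adjusted p = 0.844, edgeR), and -0.05 without MERKO 1.

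The phosphorylase kinase members resembled Pygm. Phka1 (ENSMUSG00000034055.16, chromosome X, 102513975 to 102644246, minus strand), the regulatory alpha subunit of muscle, stood at 666, 1210 and 1142 CPM in MERKO 1 to 3, against 1042, 1243 and 1102 CPM in control 1 to 3. Its log2 fold change of -0.17 (-0.69 to 0.35) became 0.06 without MERKO 1. Phkg1 (ENSMUSG00000025537.12, chromosome 5, 129863421 to 129898549, minus strand), the catalytic gamma subunit of muscle, stood at 313, 486 and 426 CPM in MERKO 1 to 3, against 440, 507 and 467 CPM in control 1 to 3. Its log2 fold change of -0.21 (-0.60 to 0.18) became -0.05 without MERKO 1, and its annotated model also spans Chchd2 on the same strand, so how its reads were counted is uncertain. Phkb, the beta subunit, differed by -0.21 on the log2 scale (-0.57 to 0.15), and by -0.06 without MERKO 1. For Pygm, Phka1 and Phkg1 alike, MERKO 1 was the lowest and control 2 the highest of the 6 libraries.

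**Figure D3:**
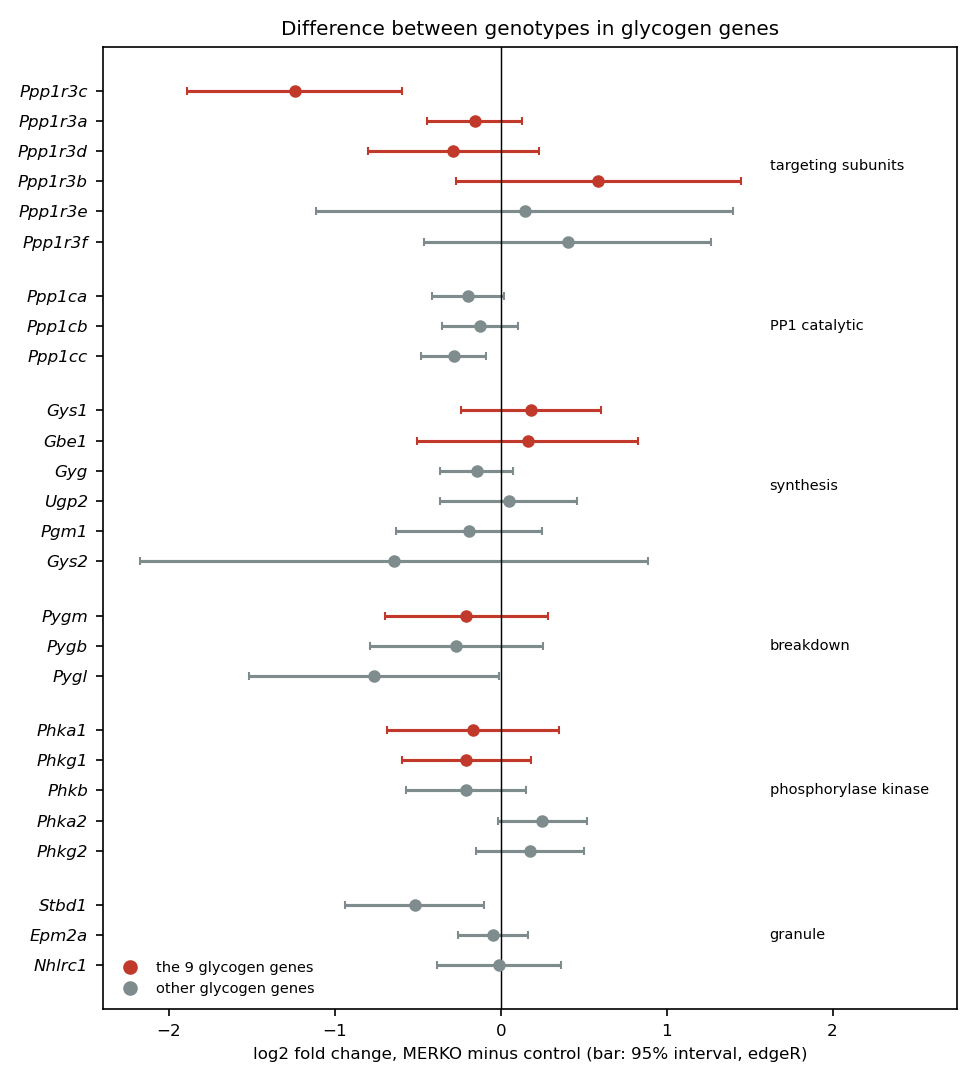
Log2 fold change, MERKO minus control, with 95% intervals from the edgeR fit over all genes, for the 9 glycogen genes (red) and other glycogen genes (grey), grouped by role. Ppp1r3c has the lowest value of the members at -1.24 (adjusted p = 0.641, edgeR). Its interval overlaps those of Ppp1r3d, Pygm, Phka1 and Phkg1. The intervals, which are not adjusted for the number of genes, include 0 for each of the other 8 members.

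Levels between genes were compared as CPM per kilobase of exon, so their order depends on the annotated exon length. In CPM without division by length, the MERKO mean was 781 for Ppp1r3a and 539 for Ppp1r3c. The control means were 871 for Ppp1r3a and 1273 for Ppp1r3c. The Phkg1 level also depends on its model, which spans Chchd2. In MERKO the order of the means was Pygm at 1177 ± 232, Ppp1r3c at 197.7 ± 31.97, Phka1 at 161 ± 47.4, Ppp1r3a at 112 ± 8.28, Gys1 at 65.9 ± 12.0, Phkg1 at 62.7 ± 13.5 and Gbe1 at 10.5 ± 3.54 (SD, n = 3). In control it was Pygm at 1360 ± 128, Ppp1r3c at 467 ± 171, Phka1 at 180 ± 16.4, Ppp1r3a at 125 ± 6.37, Phkg1 at 72.4 ± 5.20, Gys1 at 58.1 ± 11.5 and Gbe1 at 9.43 ± 3.19 (SD, n = 3). Ppp1r3d and Ppp1r3b ended both lists, below 0.7. Ppp1r3c exceeded Phka1 in every control library, whereas in MERKO 2 it stood at 161 against 193 for Phka1, so these neighbours were not separated beyond their spread in MERKO. Gys1 and Phkg1 were not separated in either group. Phka1 exceeded Ppp1r3a in every MERKO library, narrowly in MERKO 1 at 106 against 103, and their ranges over the MERKO libraries overlapped. Pygm was the highest and Gbe1 the seventh in every library.

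The muscle forms of the enzymes prevailed over their relatives in both groups. Per kilobase of exon, Gys1 held 99.56% to 99.94% of glycogen synthase transcripts in MERKO, with Gys2 at 2 to 16 counts, and 99.49% to 99.73% in control, with Gys2 at 10 to 25 counts. Pygm held between 99.77% and 99.87% of phosphorylase transcripts in MERKO and between 99.75% and 99.85% in control. Phka1 held 98.7% to 99.24% of alpha subunit transcripts in MERKO and 99.28% to 99.33% in control, and Phkg1 held 96.8% to 97.7% of gamma subunit transcripts in MERKO and 97.9% to 98.2% in control.

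The minor forms did not share a direction. Phka2 stood at 8.76, 9.01 and 9.34 CPM in MERKO 1 to 3, against 7.31, 8.36 and 7.205 CPM in control 1 to 3, without overlap (log2 fold change 0.25, -0.02 to 0.52, adjusted p = 0.713, edgeR). Phkg2 stood at 6.29, 6.99 and 6.35 CPM in MERKO 1 to 3, against 4.96, 6.08 and 6.25 CPM in control 1 to 3. It was higher without overlap, but MERKO 1 lay only narrowly above control 3 (log2 fold change 0.18, -0.15 to 0.50, and 0.08 without control 1). Of all genes, 6.17% were higher without overlap. Pygl, the liver phosphorylase, stood at 3.47, 2.69 and 3.22 CPM in MERKO 1 to 3, against 3.40, 8.68 and 4.56 CPM in control 1 to 3 (log2 fold change -0.76, -1.52 to -0.01, adjusted p = 0.703). Its log2 fold change was -0.34 without control 2. Pygl was highest in control 2, the library with the highest adipocyte sum, and the part of adipocyte RNA in its difference was not tested. The hepatocyte gene Alb, the 1 of 5 hepatocyte markers that could be tested, had 1.68 to 2.52 CPM over the MERKO libraries, against 16.8, 15.6 and 1.16 CPM in control 1 to 3.

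Beyond the members, 46 genes in 6 lists covered other steps of the pathway, and 43 of them could be tested. Of these, 15 were higher and 28 lower in MERKO, where 47.9% of all genes tested were lower, and 0 passed the edgeR test. An unadjusted p under 0.05 (edgeR) was reached by 3 (Ppp1cc, Pygl and Stbd1), where 7.04% of all genes lay under that value. The groups did not overlap in 5 of the 43 that were lower in MERKO (Ppp1ca, Ppp1cc, Gyg, Stbd1 and Prkab1), against 7.1% of all genes. They did not overlap in 2 that were higher in MERKO (Phka2 and Phkg2), against 6.17% of all genes. The median log2 fold change was -0.06 against 0.01 over all genes. Stbd1, which binds glycogen and tethers it to membranes, stood at 17.8, 27.0 and 30.5 CPM in MERKO 1 to 3, against 36.04, 34.1 and 37.2 CPM in control 1 to 3 (log2 fold change -0.52, SE 0.18, adjusted p = 0.68, edgeR). Its control libraries were tightly grouped, and MERKO 1 was the lowest, without which the log2 fold change was -0.31. Epm2a, the glycogen phosphatase laforin, was nearly level (log2 fold change -0.05, -0.26 to 0.16).

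The kinases that act on the pathway differed little. Of 12 genes for kinases that phosphorylate glycogen synthase, 4 were higher and 8 lower, and they had a median log2 fold change of -0.05. The lowest p belonged to Prkab1, a subunit of AMP-activated kinase, at -0.19 (-0.49 to 0.11). Of 6 tested genes for the beta-adrenergic receptor and protein kinase A, which start glycogen breakdown, 1 was higher and 5 lower, and Prkar2a had the lowest p at -0.16 (-0.47 to 0.14). Of 10 glycolytic enzymes, 9 were lower and 1 higher, with a median log2 fold change of -0.22. Over all genes, 47.9% were lower. The groups did not overlap in 4 of the 10, all lower, against 7.1% of all genes that were lower without overlap. Among them were Pgk1 (-0.23, -0.47 to 0.0038) and Ldha (-0.34, -0.76 to 0.07, and -0.21 without MERKO 1). None of the 10 passed (lowest adjusted p 0.709, edgeR).

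Among the members, Gys1, Gbe1, Pygm, Phka1, Phkg1 and Ppp1r3a had their highest or lowest levels in the same libraries as some myosin genes. Myh1 and Myh2, myosins of the fast IIx and IIa fibre types, were highest in MERKO 1 at 10132 and 3050 CPM and lowest in control 3 at 701 and 38.3 CPM, the libraries where Gys1 and Gbe1 were also highest and lowest. Ugp2 was highest in MERKO 1 and control 1 as well, at 702 and 682 CPM. Myh4, the myosin of fast glycolytic fibres, was lowest in MERKO 1 and control 1 at 39867 and 55646 CPM. Pygm and Phka1 were also lowest in those libraries. Phkg1 was lowest in MERKO 1 at 313 CPM. Ppp1r3a was lowest in MERKO 1 at 717 CPM and highest in control 3 at 908 CPM, the reverse of Myh1 and Myh2. Ppp1r3c did not follow this division: MERKO 1 and control 1, which both held high slow-fibre levels, had 595 and 1415 CPM. With MERKO 1 and control 1 both left out, the log2 fold change was -1.23 for Ppp1r3c (adjusted p = 0.342, edgeR), -0.13 for Pygm, 0.01 for Phka1 and 0.19 for Gys1. The part of fibre composition in the member differences was not tested.

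**Figure D4:**
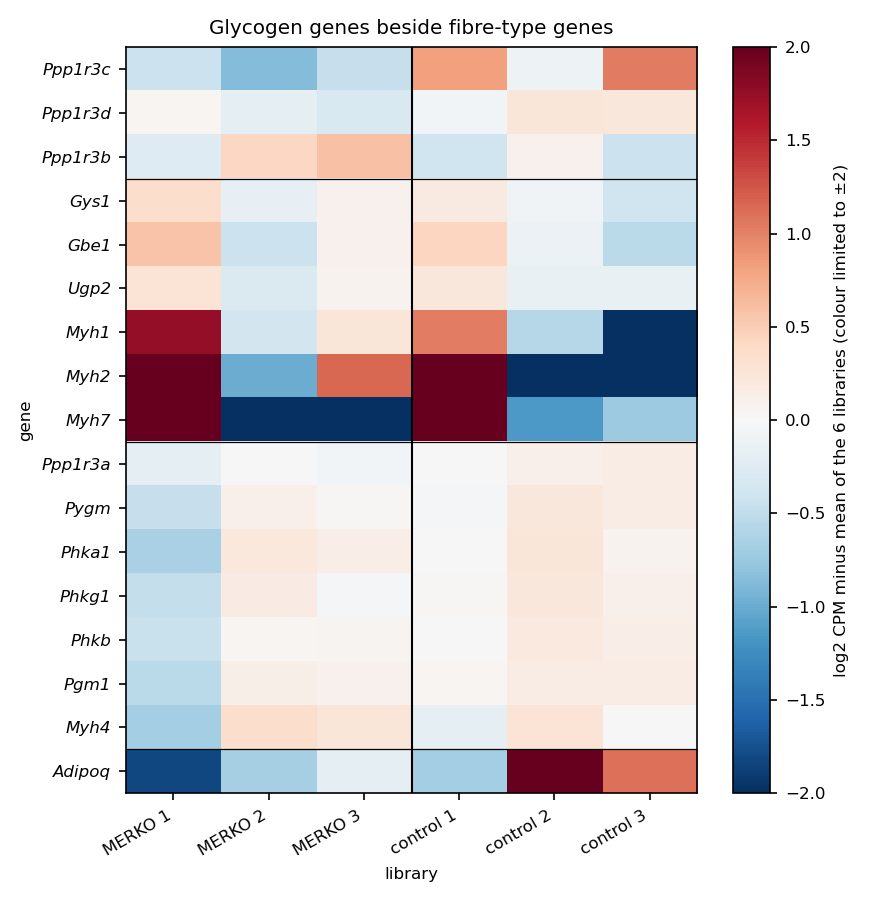
Log2 CPM of glycogen and fibre-type genes by library, centred on each gene's average, with MERKO left of the vertical line and colours limited to plus or minus 2. Gys1, Gbe1 and Ugp2 are high in MERKO 1 and control 1 with Myh1, Myh2 and Myh7, Pygm, Phka1 and Phkg1 are lowest in MERKO 1 with Myh4, and Ppp1r3c is lower in the 3 MERKO libraries.

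Markers of other cell types were present in all libraries. Tendon markers were higher in MERKO in 6 of 7 list members, and none was at 0 in all libraries. Their median log2 fold change was 2.20, and 5 of the 7 had an unadjusted p under 0.05 (edgeR), against 7.04% of all genes. The groups did not overlap in 2 of the 7, both higher in MERKO, against 6.17% of all genes that were higher without overlap. None passed after adjustment (lowest adjusted p 0.631, edgeR). Their summed level was 81.04 to 388 CPM over the MERKO libraries against 29.6 to 82.1 CPM over the control libraries. The part of tendon RNA in the member differences was not tested. Endothelial genes summed to 114 to 167 CPM over the MERKO libraries against 113 to 156 CPM over the control libraries, and macrophage genes to 48.6 to 73.6 CPM over the MERKO libraries against 49.5 to 86.3 CPM over the control libraries.

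The genes whose log2 CPM ran most like Ppp1r3c over the 6 libraries were Mff, Nr1h3, Rpl8, Rpl9 and Tonsl, with Pearson correlations of 0.986 to 0.993, given as a description of 6 points that share library make-up. Their own differences were small. Mff, which takes part in mitochondrial fission, stood at 86.0, 82.2 and 86.0 CPM in MERKO 1 to 3, against 94.99, 86.8 and 97.1 CPM in control 1 to 3 (log2 fold change -0.13, adjusted p = 0.744, edgeR). Nr1h3, the nuclear receptor LXRα, had 10.1 to 10.97 CPM over the MERKO libraries against 11.3 to 14.03 CPM over the control libraries (log2 fold change -0.31, adjusted p = 0.683). Rpl8 and Rpl9, ribosomal protein genes whose reads could be shared with pseudogenes, had log2 fold changes of -0.19 and -0.29, and Tonsl, a DNA repair protein, of -0.09.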

How the data were processed

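RNA from quadriceps was sequenced in 3 MERKO and 3 control libraries, prepared with Trizol and an Illumina TruSeq kit per the labels' protocols. The authors deposited raw read counts per gene, 1 column per library, as whole numbers that sum to different totals. Per the submitters' processing notes, STAR 2.5.2b, HTSeq 0.9.1, DESeq and the builds mm10 and GRCm38 were used. Which annotation and strand option were chosen was not given in the sources used here, so counts of overlapping or near-identical genes are uncertain. Nothing in the labels says that replicates came from separate animals, and a p-value then reflects only the variation among these libraries, which may be technical. No pair of replicates was close enough in counts to be a repeat deposit of 1 library (lowest chi-square divided by its degrees of freedom 109.6).

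Symbols matched 48435 of 48795 identifiers, and coordinates and exon lengths come from GENCODE M21 on GRCm38. All genes were fitted together with the edgeR 4.0.16 quasi-likelihood test (R 4.3.3) after filterByExpr and TMM scaling, with genotype as the term and Benjamini-Hochberg adjustment over 13628 genes at a threshold of 0.05. Each log2 fold change is MERKO over control, and its 95% interval is not adjusted for the number of genes. CPM used TMM-scaled library sizes, and relative levels and likeness used log2 CPM with a prior count of 2. Alternatives were DESeq2 1.42.0, RLE factors, library totals without a composition factor, all genes unfiltered, a minimum of 1 CPM in 3 libraries, limma-voom (limma 3.58.1), a replicate block, removal of rRNA and mitochondrial DNA genes, the rRNA share as a covariate (chosen after the data were seen) and leaving out libraries. The edgeR, replicate block, DESeq2 and limma-voom fits were run on simulated counts with known folds. The simulation held no effects of library make-up such as rRNA share, and it set a limit on false calls for the edgeR fit alone. Results for 1 gene of the pathway are not reported here. The members and lists were chosen with earlier results of these data known. Named were all members, Esr1, the relatives of members, genes of low p in each list (up to 3 each, of which some are given) and the 5 genes most like Ppp1r3c whose mean log2 CPM reached 0, Gm and Rik symbols aside. The myosins and marker genes come from the fixed fibre and cell type lists, and those printed were picked after their values were seen. Counts without molecular identifiers are not independent molecules, so a limit from a count of 0 covers counting error only.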

Additional observations from a re-analysis of the deposited data

How the results depend on the processing

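Ppp1r3c was lower in MERKO under every alternative run, with a log2 fold change of -1.50 to -1.01 when single libraries were left out and adjusted p-values between 0.000639 and 0.999 over all alternatives. It passed the threshold, as the 1 member called, under DESeq2 (-1.25), without a composition factor (-1.38), without a filter on low counts (-1.25) and with the replicate block (-1.18). Over all genes, the 1 call of the edgeR fit (0 higher, 1 lower) compares with 23 under DESeq2 (13 higher, 10 lower), 93 without a composition factor (44 higher, 49 lower), 140 without a filter (86 higher, 54 lower), 51 with the replicate block (31 higher, 20 lower), 7 without replicate 1 of both groups (2 higher, 5 lower) and 0 to 11 when single libraries were left out (0 without MERKO 1 or MERKO 2, 11 without MERKO 3, 2 without control 1 or control 3). Without a composition factor the median of all genes was -0.10 in place of 0.01. The cause of these differences in number was not tested. The block rests on a shared number only: deviations from the group means correlated at 0.45, 0.16 and 0.06 for numbers 1 to 3, and control 3 correlated best with MERKO 2 (0.18). The log2 fold change of Esr1 lay between -2.08 and -1.84 when single libraries were left out. The share of Ppp1r3c among targeting subunits was 40.6% in MERKO and 57.8% in control without division by exon length, in place of 63.3% and 77.3%.

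Directions reversed for 8 genes with small differences. Without replicate 1 of both groups, values were 0.0059 for Phka1, -0.13 for Gabarapl1 and 0.035 for Prkacb. When single libraries were left out, Gbe1 ran from -0.11 to 0.46, Phka1 from -0.31 to 0.059, Pygb from -0.43 to 0.0073, Ppp1r3e from -0.22 to 0.81, Gabarapl1 from -0.21 to 0.26, Prkacb from -0.20 to 0.030 and Prkar1a from -0.20 to 0.018. Without a composition factor Ppp1r3e was at -0.021 and Prkag2 at -0.012. Ppp1r3b, Ppp1r3e, Ppp1r3f and Gys2 had under 70 counts in every library, which limits what could be detected.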
